A study of Mus musculus with 2 samples.

Results

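The genes described here are Trp53, which encodes the transcription factor p53, and 9 genes that p53 is well known to activate directly: Mdm2, Cdkn1a, Ccng1, Bax, Bbc3, Trp53inp1, Phlda3, Perp and Zmat3. They were taken by name, and all 10 were found among the 26127 probes (merged mRNA features) in the files. RNA from mouse embryonic stem (ES) cells of the 129S1/SvImJ strain was sequenced as 1 library for each of 2 cell lines, so no value below has a replicate. WT cells were unmodified (H3f3a+/+, H3f3b+/+), and G34R cells carried a single mutant copy of H3f3a (H3f3a+/G34R, H3f3b+/+) that encodes the histone variant H3.3 with arginine in place of glycine at residue 34. In G34R cells the mutant coding sequence was driven by the endogenous H3f3a promoter after targeting and Cre-mediated excision. Both lines were grown in serum and leukaemia inhibitory factor and used at fewer than 20 passages, and each library held RNA of 1 line, so the effect of the mutation and that of the clone or the culture cannot be told apart.

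p53 is kept low in undisturbed cells by Mdm2, a ubiquitin ligase that p53 itself switches on. When DNA is damaged or growth is deregulated, p53 protein accumulates, binds paired copies of a short DNA element and raises the transcription of genes for cell cycle arrest, DNA repair and cell death. Mouse ES cells are known for abundant p53 and for a G1 phase with little p21, the product of Cdkn1a. p53 activity is set largely at the level of the protein, so RNA levels of Trp53 alone do not measure it.

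Expression is given in RPKM, reads per kilobase of merged transcript, scaled to the reads of the library. Differences are given as log2 (G34R/WT RPKM), for which 0.01 RPKM was the lowest value used. The depth is not in the files, but short genes with few reads fell on steps worth 1 read each. From these steps a total of about 88.1 M reads in WT and 72.4 M in G34R cells was estimated. All 95% intervals below come from reads estimated in this way and cover counting error only. ES cell markers were high in both libraries, with Pou5f1 at 194.34 and 189.46 RPKM and Sox2 at 73.83 and 75.05 RPKM in WT and G34R cells. Zfp42 (180.3 and 16.4 RPKM) and Nanog (127.07 and 52.24 RPKM) were past 2-fold lower in G34R cells, and Utf1 (61.89 and 108.56 RPKM) and Klf4 (25.14 and 43.71 RPKM) were past 1.5-fold higher. The other 8 of the 12 ES cell markers found were within 1.5-fold. Of 12 fibroblast markers, which would mark feeder cells, 9 were under 0.25 RPKM in both libraries, among them Col1a1, Col1a2 and Col3a1, and 4 were at 0 in both. The 3 that passed were Mmp2 (2.31 and 4.1 RPKM in WT and G34R cells), Thy1 (1.18 and 0.71 RPKM) and Fbln2 (0.3 and 0.66 RPKM). Of these Fbln2 was past 2-fold higher in G34R cells. All 10 primitive endoderm markers that passed 0.25 RPKM in 1 or both libraries were higher in G34R cells, beside 5954 of all 13366 genes that passed. Sox17 (0.18 and 0.56 RPKM) passed through the G34R library only, so the filter fixed its direction. Foxa2 did not pass and was lower in G34R cells (0.13 and 0.07 RPKM). The 12 markers listed summed to 62.7 RPKM in WT and 100.7 RPKM in G34R cells. Of 8 mesoderm markers only Eomes and Hand1 passed 0.25 RPKM, and the 8 summed to 0.94 and 2.82 RPKM. Hand1 (0.14 and 0.26 RPKM) passed through the G34R library only. Of 8 neural markers 4 passed, with Tubb3 lower (35.58 and 8.36 RPKM) and Olig2 higher (0.03 and 17.71 RPKM) in G34R cells. The part of these differences in the results below was not tested.

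Matches to the DNA element that p53 binds are shown first, because binding to it defines a direct target. A p53 response element is made of 2 half-sites of 10 bases, each with 3 purines, a C, 2 bases that are A or T, a G and 3 pyrimidines. Joined half-sites with no more than 2 mismatches, and with every such C and G in place, were searched within 3000 bases on either side of the gene start in mm9 for Trp53, Mdm2, Cdkn1a, Ccng1, Bax, Bbc3 and Phlda3. Matches at Trp53inp1, Perp and Zmat3 were not recorded, because these genes had no promoter entry in the RefSeq reference used to choose genes. Their starts were scanned only as part of the count over all genes. The element reads the same on both strands. Of the 7 genes with recorded results 3 held a match, beside 6.04% of the 26113 gene starts searched. The matches are printed on the strand of the gene, with the 4 central bases of each half-site in capitals.
Cdkn1a: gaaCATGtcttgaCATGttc
Ccng1, upstream: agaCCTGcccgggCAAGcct
Ccng1, intronic: acgCAAGcccgggCTAGtct
Bax: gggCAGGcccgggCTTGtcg
The Cdkn1a match lay at chr17:29227873-29227892, starting at position -51 from the annotated gene start, with 1 mismatch. The Ccng1 matches lay at chr11:40568964-40568983, at position -170, and at chr11:40568438-40568457, at position 356 in an intron, with 1 mismatch each. The Bax match lay at chr7:52721944-52721963 and overlapped an exon, at position 305, with 2 mismatches. These are matches of letters and not measured binding, and half-sites set apart by a spacer were not searched.

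Transcripts of all 10 genes were well above the filter of 0.25 RPKM in both libraries, and 9 of the 10 differed by less than 1.5-fold between WT and G34R cells. Perp, at 6.47 RPKM in WT and 16.27 RPKM in G34R cells, was the exception and the only gene of the 10 past 2-fold, and none was past 2-fold lower. Among the 13366 genes with at least 0.25 RPKM in 1 or both libraries, 5.79% were past 2-fold higher and 9.64% past 2-fold lower. At 1.5-fold the shares were 13.3% and 18.1%, or 31.4% in either direction. The share past 2-fold falls with abundance, and among genes with at least 5 RPKM, as all 10 genes were, 3.09% were higher and 4.07% lower. In direction, 7 of the 10 genes were higher in G34R cells and 3 were lower, although Zmat3, at a log2 ratio of 0.02, turned sign under 1 scaling. Over all 13366 genes 5954 were higher and 7355 lower. Their median log2 ratio was 0.18, with quartiles of -0.24 and 0.26, beside a median of -0.07 and quartiles of -0.42 and 0.27 over all 13366 genes.

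**Figure D1:**
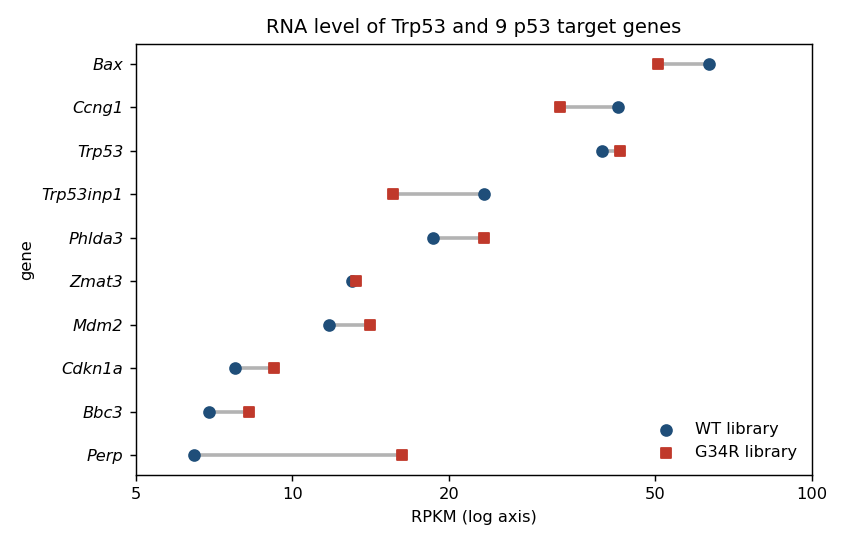
RPKM (log axis) of Trp53 and 9 p53 target genes in the WT library (blue circles) and the G34R library (red squares), 1 library each. Levels ran from 6.47 to 63.4 RPKM in WT cells, and the markers lie close together for every gene but Perp.

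Trp53 (ENSMUSG00000059552, chr11:69393861-69405375, plus strand) was at 39.46 RPKM in WT and 42.65 RPKM in G34R cells, from about 14061 and 12483 reads. The log2 ratio was 0.11 (95% interval 0.08 to 0.15), beside a median of 0.15 for its 79 neighbours within 1 Mb. The level was high among all genes that passed the filter, of which 94.7% were lower than Trp53 in the WT library and 95.3% in the G34R library. The merged exons of Trp53 total 4045 bases, whereas its longest coding transcript in the annotation has 1867 bases. If the deposited RPKM used the merged length, reads on the spliced mRNA were divided by a longer model than the mRNA itself. Of the stretches of 50 bases in Trp53 exons, 4.8% also occurred elsewhere in the genome, and reads from these could be shared with copies.

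Mdm2 (ENSMUSG00000020184, chr10:117125944-117147814, minus strand) encodes the ligase that marks p53 for degradation, and its transcription is part of the p53 feedback loop. It was at 11.76 RPKM in WT and 14.11 RPKM in G34R cells. The log2 ratio of 0.26 (95% interval 0.21 to 0.32) was past counting error, although 40.5% of the genes between 10 and 30 RPKM lay at least as far from their median. The 10 genes within 1 Mb of Mdm2 had a median of -0.14, and 4 of them were higher in G34R cells.

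Cdkn1a and Ccng1 differed in direction. Cdkn1a (ENSMUSG00000023067, chr17:29227924-29237667, plus strand) encodes p21, the inhibitor of cyclin-dependent kinases through which p53 stops cells in G1. It was low among the 10 genes in both lines, at 7.75 RPKM in WT and 9.2 RPKM in G34R cells, with a log2 ratio of 0.25 (95% interval 0.14 to 0.35). Ccng1 (ENSMUSG00000020326, chr11:40562054-40568813, minus strand) encodes cyclin G1, which feeds back on p53 through Mdm2. It was at 42.41 RPKM in WT and 32.77 RPKM in G34R cells, with a log2 ratio of -0.37 (95% interval -0.41 to -0.33). Each of these genes had a match to the p53 element upstream of its start, with the different sequences printed above. Whether the matches bear on the ratios was not tested.

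Among genes of cell death, Bax (ENSMUSG00000003873, chr7:52717065-52722268, minus strand) encodes the BCL2 family protein that opens the mitochondrial outer membrane. It had the highest RPKM of the 10 genes in both lines, at 63.4 RPKM in WT and 50.49 RPKM in G34R cells (log2 ratio -0.33, 95% interval -0.38 to -0.28). Bbc3 (ENSMUSG00000002083, chr7:16894965-16903554, plus strand) encodes Puma, a BH3-only protein that frees Bax from its inhibitors. It was among the lowest, at 6.92 RPKM in WT and 8.26 RPKM in G34R cells (log2 ratio 0.26, 95% interval 0.14 to 0.37). Both proteins promote death, and Bax transcripts were lower and Bbc3 transcripts higher in G34R cells. For each of them over 46% of genes of similar level lay at least as far from their median, 48.5% for Bax and 46.9% for Bbc3.

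Trp53inp1 (ENSMUSG00000028211, chr4:11083578-11101526, plus strand) encodes a stress-induced cofactor that helps p53 activate death genes. It had the lowest ratio of the 10, with 23.4 RPKM in WT and 15.63 RPKM in G34R cells, from about 13347 and 7323 reads. The log2 ratio was -0.58 (95% interval -0.62 to -0.54). Of all genes that passed the filter 18.3% had a ratio as low, and its 15 neighbours within 1 Mb had a median of -0.32. Phlda3 (ENSMUSG00000041801, chr1:137662696-137665713, plus strand) encodes a small membrane-binding protein that restrains Akt. It was at 18.64 RPKM in WT and 23.42 RPKM in G34R cells (log2 ratio 0.33, 95% interval 0.25 to 0.41). Zmat3 (ENSMUSG00000027663, chr3:32233718-32264600, minus strand) encodes an RNA-binding zinc finger protein. It was nearly level, at 13.05 and 13.25 RPKM, and its 95% interval of -0.02 to 0.07 on the log2 scale includes 0. Its sign turned with the scaling, to -0.04 when both libraries were set to the same upper quartile.

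Perp (ENSMUSG00000019851, chr10:18564877-18576879, plus strand) encodes a tetraspan membrane protein that takes part in p53-dependent death and, in epithelia, in desmosomes, where it is also a target of the p53 relative p63. It was the lowest of the 10 genes in the WT library, at 6.47 RPKM, and had rank 5 in the G34R library, at 16.27 RPKM. The estimated reads were 1083 and 2238, and the log2 ratio was 1.33 (95% interval 1.23 to 1.44), or 2.51-fold. Of all genes that passed the filter 3.53% had a ratio as high, and of the 2220 genes between 10 and 30 RPKM 3.51% lay at least as far from their median. The 9 genes within 1 Mb of Perp had a median of 0.29, and 5 of them were higher in G34R cells. No stretch of 50 bases from Perp exons occurred elsewhere in the genome. The p63 gene, Trp63, was under 0.25 RPKM in both libraries, and a part of p63 in the ratio of Perp was not tested.

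**Figure D2:**
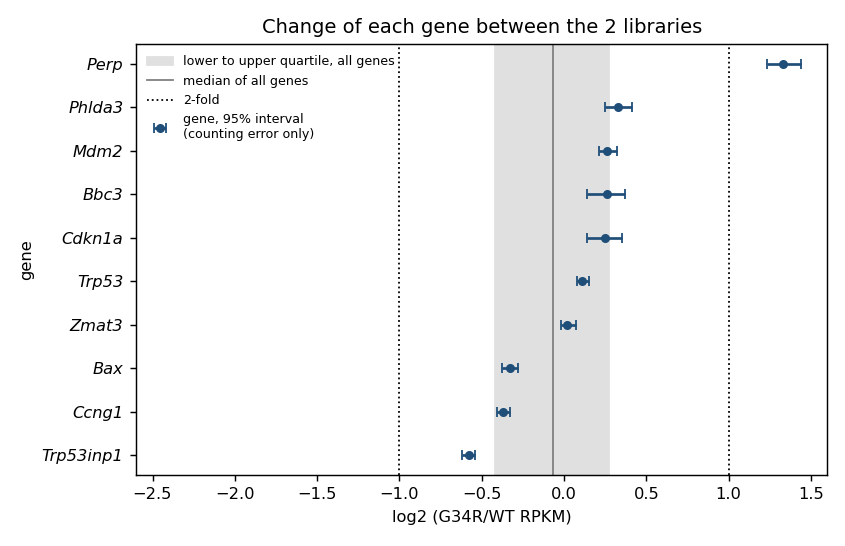
log2 (G34R/WT RPKM) of each gene, with bars for the 95% interval from estimated reads (counting error only), the quartiles of all 13366 genes in grey, their median as a line and 2-fold as dotted lines. Perp at 1.33 lies past 2-fold, Trp53inp1 at -0.58 and Phlda3 at 0.33 lie outside the quartiles, and the other 7 genes lie within them.

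The order of the 10 genes by level was similar in both lines at the top, with Bax, Ccng1 and Trp53 in the first 3 places. Ccng1 and Trp53 changed places. Trp53inp1 had rank 4 in WT and rank 6 in G34R cells, and Perp rank 10 and rank 5. Cdkn1a and Bbc3 were next to each other near the bottom of both orders. With 1 library per line there is no spread to say which neighbours in these orders differ. The orders also depend on the length model. Trp53 has 4045 merged bases and 1867 in its longest coding transcript, and Bax has 1339 and 1049. Orders per kilobase of coding transcript were not taken and could differ. Summed over the 10 genes, the level was 233.3 RPKM in WT and 226.1 RPKM in G34R cells. None of the 10 genes lies on chromosome 8, where 522 of 729 genes were higher in G34R cells with a median log2 ratio of 0.35, beside -0.09 over the other chromosomes. None overlapped another annotated gene on either strand, and for 6 of the 10 no stretch of 50 exon bases occurred elsewhere in the genome.

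Other direct p53 targets were taken from a list of 53 genes, of which Pidd1 was not found by name and is not analysed here. Of the 52 found, 47 passed 0.25 RPKM. Of these 3 were past 2-fold higher in G34R cells and 3 past 2-fold lower, or 12.8% in either direction beside 15.4% of all genes. Their median log2 ratio was 0.14, with 29 above 0 and 18 below, beside 5954 of all 13366 genes above 0. The genes past 2-fold higher were Sfn, Pmaip1 and Gadd45a. Sfn encodes 14-3-3 sigma, which holds cells in G2 and is abundant in epithelia. It was at 9.35 RPKM in WT and 50.6 RPKM in G34R cells, with a log2 ratio of 2.44 (95% interval 2.35 to 2.52), and 0.89% of all genes had a ratio as high. Pmaip1, the gene of the BH3-only protein Noxa, was at 3.88 and 13.76 RPKM, with a log2 ratio of 1.83 (95% interval 1.72 to 1.94). Gadd45a, a growth arrest and DNA damage gene, was at 6.19 and 12.95 RPKM, with a log2 ratio of 1.06 (95% interval 0.95 to 1.18), which includes 1, the 2-fold line. A gene on the other strand, E230016M11Rik, overlaps Gadd45a, and counting was by strand.

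The genes past 2-fold lower were Ptprv, Cd80 and Aen. Aen, the gene of a nuclease that acts in p53-dependent death, was at 9.69 RPKM in WT and 4.84 RPKM in G34R cells and lay on the threshold, with a 95% interval of -1.08 to -0.93 on the log2 scale. Ptprv, the gene of a receptor-type tyrosine phosphatase, was at 2.34 and 0.14 RPKM. Its merged model has only 291 bases, so these values rest on about 60 and 3 reads, and the interval ran from -6.36 to -2.42. Cd80, a costimulatory ligand, was under 1 RPKM in both libraries (0.75 and 0.13 RPKM) and is named only because it completes the count. The targets with the highest mean level were Gpx1, Rps27l, Gtse1 and Sfn. Gpx1, a glutathione peroxidase, was at 141.6 and 104.87 RPKM. Rps27l, a ribosomal protein paralogue whose reads could be shared with close copies, was at 94.11 and 63.77 RPKM. Gtse1, a G2 phase protein that antagonises p53, was at 42.54 and 46.84 RPKM.

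The other targets were also sorted by known role. This grouping was made after the values were seen, so its counts are a description and say nothing of a difference between roles, and over all genes 5954 of 13366 were above 0. The 6 genes of DNA repair and nucleotide supply (Ddb2, Xpc, Ercc5, Polk, Mgmt and Rrm2b) had log2 ratios from 0.16 to 0.88, and none was past 2-fold. Of 11 genes of cell cycle and growth, 7 were higher and 4 lower. Of 10 genes of metabolism and redox, 4 were higher and 6 lower, with a median of -0.34 and a range of -0.68 to 0.65. Of the genes of cell death 6 passed the filter, 4 of them higher and 2 lower. Fas, the gene of a death receptor, was among those that did not pass. Of the 16 genes of other or mixed roles 14 passed, 8 of them higher and 6 lower.

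Genes that act on p53 or belong to its family numbered 35, and 34 passed the filter. Their median log2 ratio was -0.03, with 16 above 0 and 18 below, beside 5954 of all 13366 genes above 0. Past 2-fold, 2 were lower and 1 was higher, or 8.82% in either direction beside 15.4% of all genes. Atr, the gene of a kinase that signals replication stress to p53, was the lowest, at 10.06 RPKM in WT and 4.27 RPKM in G34R cells (log2 ratio -1.24, 95% interval -1.30 to -1.17). The 15 genes within 1 Mb of Atr had a median of -0.67, and 4 of them were higher in G34R cells. Other annotated genes overlap Atr on both strands. Trp73, a p53 relative, was past 2-fold lower but under 1 RPKM (0.96 and 0.44 RPKM), and is named to complete the count. Usp10, the gene of an enzyme that removes ubiquitin from p53, was at 15.22 and 30.9 RPKM, a log2 ratio of 1.02 (95% interval 0.98 to 1.06), which also includes the 2-fold line. It lies on chromosome 8, and all 16 genes within 1 Mb of it were higher in G34R cells, with a median of 0.56. Another gene model, Gm20388, overlaps it on the same strand, so that reads could be split. Usp10 was the only regulator past 2-fold higher, so none could remain once genes on chromosome 8 were left out. The part of its chromosome in the ratio of Usp10 was not tested. Hdac1, the gene of a deacetylase that can act on p53, was at 13.56 and 24.58 RPKM, and Kat5, the gene of the Tip60 acetyltransferase, was at 7.97 and 5.02 RPKM. Rpl5, whose product binds Mdm2 and whose reads could be shared with pseudogenes, was the highest of the list, at 77 and 70.41 RPKM.

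Downstream of p53, the rest of the BCL2 family and the caspase machinery were taken as 22 genes, of which 21 passed the filter. Their median log2 ratio was 0.14, with 13 above 0 and 8 below, beside 5954 of all 13366 genes above 0. The list had 1 gene past 2-fold in each direction, or 9.52% in either direction beside 15.4% of all genes. Both were weakly expressed: Casp8, an initiator caspase, at 0.1 and 0.56 RPKM, and Bcl2l10, a BCL2 relative, at 0.26 and 0.03 RPKM. Bcl2l10 rests on about 28 and 3 reads, with an interval of -5.30 to -1.24. The survival gene Mcl1 was the highest of the list, at 83.64 RPKM in WT and 65.12 RPKM in G34R cells (log2 ratio -0.36). Bmf, a BH3-only gene, was at 4.32 and 3.43 RPKM. Bcl2l11, the gene of the BH3-only protein Bim, was at 2.3 and 3.79 RPKM, with a log2 ratio of 0.72.

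The DREAM complex represses cell cycle genes when p21 is induced, and 40 such genes were taken as a readout of that branch. All 40 passed the filter, and 37 of them differed by less than 1.5-fold, beside 68.6% of all genes. That share includes genes down to 0.25 RPKM, where ratios spread more, and no 1.5-fold share was taken for genes of similar level. Past 2-fold was 1 gene, or 2.5% beside 15.4% of all genes. Among all genes between 10 and 30 RPKM, 3.33% were past 2-fold lower and 2.93% higher, and the quartiles of the log2 ratio were -0.29 and 0.21. The 40 genes had a median log2 ratio of 0.02, with quartiles of -0.20 and 0.19, and 21 were above 0 and 19 below. Over all 13366 genes 5954 were above 0. The exception was Birc5, the gene of survivin, at 17.06 RPKM in WT and 6.81 RPKM in G34R cells (log2 ratio -1.32, 95% interval -1.41 to -1.25). Rrm2, a ribonucleotide reductase subunit, had the highest ratio, at 48.72 and 87.54 RPKM (0.85 on the log2 scale). Cdc20, an activator of the anaphase-promoting complex with the highest mean level of the list, was at 95.56 and 132.16 RPKM, and Nusap1, a spindle protein, was at 18.41 and 12.16 RPKM.

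**Figure D3:**
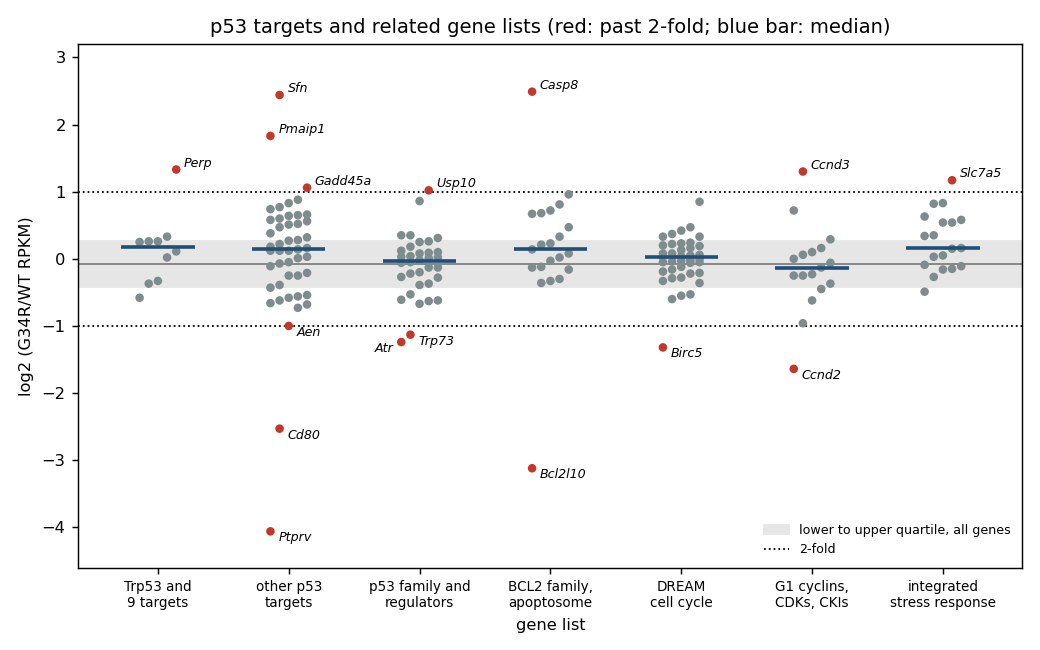
log2 (G34R/WT RPKM) of each gene that passed 0.25 RPKM, by gene list, with list medians as blue bars, genes past 2-fold in red and named, and the quartiles of all genes in grey with their median as a line. List medians lie between -0.13 and 0.18, and Sfn, Pmaip1 and Perp are the p53 targets farthest above 2-fold. CKI, cyclin-dependent kinase inhibitor.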

How the data were processed

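Stranded 50 bp single-end reads from 500 ng of total RNA were aligned by the authors to mm9 with STAR (2.4.2a). Primary alignments were quantitated in Seqmonk over merged isoforms and deposited as RPKM per gene, to 2 decimals, 1 library per cell line. RPKM cannot show a change in total RNA per cell. With 1 library per line no p-value is given.

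Ratios on the log2 scale were formed from these values with a floor of 0.01 RPKM, and a gene was compared where 1 or both libraries reached 0.25 RPKM. Genes of similar level were grouped by mean RPKM (limits 1, 3, 10, 30 and 100). The members and lists were chosen with earlier results of these data known, and the tables of alternatives were then fixed. The genes named are all 10 members, other p53 targets past 2-fold with at least 1 RPKM and the 4 highest, and from each further list the 2 largest and 2 smallest ratios with at least 1 RPKM and the highest gene. Of the genes so chosen, 1 is not reported here. Genes under 1 RPKM that complete a count were added after their values were seen. The lists held 7 sets of p53-related genes and 5 sets of cell type markers, and 3 of 251 entries were not found by name.

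Library totals were estimated from genes under 800 bp with 1 exon and fewer than 6 reads, as the total that brings RPKM x length nearest to whole reads. There were 74 such values in WT and 60 in G34R cells. The totals were fitted to them, and 77.0% and 81.7% lay within 0.15 of a whole read. Of the values of short genes with several exons, not used in the fit, 61.4% and 79.9% did. On 3 simulated libraries of 680 genes with known lengths the totals were recovered to within 0.91%. The real estimates used fewer genes and assumed lengths, so the simulation does not bound their error. Lengths came from GENCODE M1 (mm9), which matched 26030 of 26127 probes by span, strand and name. That the deposited RPKM used these merged exon lengths was assumed. Intervals are exact binomial intervals of the G34R share of estimated reads. Sites and copies of 50 bases were searched in the mm9 genome. Tables were handled with pandas 2.3.3 and NumPy 2.4.6 in Python 3.11.15, intervals came from SciPy 1.17.1, and plots were drawn in matplotlib 3.10.9.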

Additional observations from a re-analysis of the deposited data

How the results depend on the processing

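No paired analysis was possible because each cell line had 1 library, and for the same reason no library could be left out. Of 100 alternative log2 ratios of the 10 genes, 99 moved by less than 0.1, none of the genes past 2-fold changed sign, and the ratio of Perp moved most, to 1.21 with a pseudocount of 1 RPKM. The filters and the omission of chromosome 8 only admit or drop genes and cannot move a ratio. The scalings shifted every ratio by 0.05, 0.05 and -0.07. Only added pseudocounts could therefore move a ratio by 0.1 or more, so most of the 99 were fixed in advance. Perp was past 2-fold under all alternatives but the threshold of 3-fold, where the count of the 10 genes was 0. With a pseudocount of 1 RPKM, 356 genes of all were lower and 196 higher past 2-fold, and 1 other p53 target was lower; regulators had 1 lower and 0 higher, the BCL2 list 0 and 0, and G1 genes 0 lower. A pseudocount of 0.1 RPKM left 1 regulator lower. Without a filter 2877 genes were lower and 1445 higher, and the BCL2 list had 2 higher. With at least 1 RPKM, 689 were lower and 439 higher, with 1 regulator lower and 0 in the BCL2 list in both directions. With at least 5 RPKM, 239 were lower and 181 higher, with 1 other target and 1 regulator lower, 0 in the BCL2 list in both directions and 0 G1 genes lower, and the medians of G1 and stress response genes were 0.00 and 0.44. The same sum, or a centred median, gave 2 of the BCL2 list higher, and the same upper quartile 0 regulators higher and 2 G1 genes lower. At 1.5-fold, 2422 genes were lower and 1780 higher, with 7 and 11 other targets, 6 and 2 regulators, 2 and 1 DREAM genes, 3 and 2 G1 genes, 6 of the BCL2 list higher and 4 stress response genes higher. At 3-fold, 721 were lower and 331 higher, with 0 regulators in both directions, 0 DREAM genes lower, and 0 G1 and 0 stress response genes higher. Without chromosome 8, a setting chosen after seeing the data, 0 regulators and 0 stress response genes were higher. That had to be so, because Usp10 and Slc7a5 lie on it. These counts change with the genes and folds admitted. The intervals cover counting error only, so differences of the size seen in 9 of the 10 genes have no replicate check.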

Other observations

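A list of 17 genes held G1 cyclins and cyclin-dependent kinases, on which p21 acts, other inhibitors of these kinases, and Rb1, Rbl1 and Rbl2. All 17 passed 0.25 RPKM. Their median log2 (G34R/WT RPKM) was -0.13. Past 2-fold was 1 gene in each direction, or 11.8% in either direction beside 15.4% of all genes. Ccnd3, the gene of cyclin D3 with the highest mean level of the list, was at 44.86 RPKM in WT and 110.72 RPKM in G34R cells (log2 ratio 1.30, 95% interval 1.27 to 1.34). Ccnd2, the gene of cyclin D2, was at 1.65 and 0.53 RPKM, a log2 ratio of -1.64 (95% interval -1.86 to -1.42). Ccne2, a cyclin E gene, was at 3.27 and 4 RPKM, and Cdkn2b, the gene of the inhibitor p15, at 1.32 and 0.68 RPKM. Genes overlap Ccnd2 and Ccnd3 on the other strand, and counting was by strand.

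The integrated stress response, a programme of amino acid supply and recovery genes driven by Atf4, was compared as 21 genes, of which 19 passed the filter. Their median log2 ratio was 0.16, with 13 above 0 and 6 below, beside 5954 of all 13366 genes above 0. Past 2-fold was 1 gene, or 5.26% beside 15.4% of all genes. This was Slc7a5, an amino acid transporter gene, at 30.08 RPKM in WT and 67.76 RPKM in G34R cells. Slc7a5 lies on chromosome 8, and 23 of the 25 genes within 1 Mb of it were higher in G34R cells, with a median of 0.53. The gene model Gm20388 overlaps it on the other strand. Phgdh, an enzyme of serine synthesis, was at 16.44 and 29.22 RPKM. Atf5, a transcription factor gene, was at 3.62 and 2.57 RPKM, and Eif4ebp1, a translation repressor gene and the highest of the list, at 124.84 and 103.8 RPKM.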
